A study of Homo sapiens with 12 samples.

Results

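The 8 genes described here are the UGT2 genes UGT2B4, UGT2B7, UGT2B10, UGT2B11, UGT2B15, UGT2B17, UGT2B28 and UGT2A3, which were chosen by name and matched to the Ensembl identifiers of the count files, out of 58381 genes counted. All 8 are on chromosome 4 (GRCh38). Their order along the chromosome was UGT2B17, UGT2B15, UGT2B10, UGT2A3, UGT2B7, UGT2B11, UGT2B28 and UGT2B4, from base 68537184, where UGT2B17 starts, to base 69526014, where UGT2B4 ends. UGT2B7, UGT2B10 and UGT2B28 lie on the plus strand and the others on the minus strand.

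UGT2 proteins sit in the membrane of the endoplasmic reticulum and transfer glucuronic acid from UDP-glucuronate to small lipophilic molecules, which makes them water soluble and ready for export. UGT2B15 and UGT2B17 are known for conjugating dihydrotestosterone and its reduced metabolite androstanediol. In the prostate this is a major route by which active androgen is inactivated. UGT2B28 has also been linked to androgen conjugation, UGT2B7 handles many drugs as well as steroids, UGT2B4 is known for bile acids, UGT2B10 for N-glucuronidation of amines such as nicotine, and UGT2A3 is mainly a gene of the liver and gut. Androgen is known to lower UGT2B15 and UGT2B17 expression in prostate cancer cells.

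VCaP is a human prostate cancer line that responds to androgen and carries the TMPRSS2-ERG fusion. Poly(A) RNA was sequenced in 12 libraries, 3 for each of 4 groups. VCaP-T cells (passage 84), a subline grown long term with 10 nM testosterone (T), were measured at 10 nM T and after 48 h at 0.1 nM T. VCaP-CT cells (passage 73), derived from VCaP-T by long culture at 0.1 nM T, were measured at 0.1 nM T and after 48 h at 10 nM T. These groups are called maintained VCaP-T, depleted VCaP-T, maintained VCaP-CT and rechallenged VCaP-CT below. All groups shared RPMI medium with charcoal-stripped serum. Each line is a single derivation at a single passage, so a difference between the lines cannot be told apart from what is particular to these 2 cultures. Comparisons of the lines at the same T set 48 h at that level against long-term culture at it. Line and length of exposure cannot be told apart there. The sources used here do not say whether replicates were separate cultures, so p-values measure the spread between libraries, which may be technical.

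The libraries held between 30.2 M and 40.8 M fragments assigned to genes. In the VCaP-T group depleted for 48 h, replicate 2 stood apart from its sisters, with correlations of 0.965 and 0.970 on log2 CPM (counts scaled to library size), where every other pair of one group had 0.993 or more. Tests of the UGT2 genes that use this group are therefore given with and without it. All 7 luminal prostate markers were detected in every group, and their summed level was between 4053 and 5781 CPM. The androgen-induced genes FKBP5 and TMPRSS2 moved with T in both lines, with log2 differences of -1.68 and -1.25 at depletion and 2.47 and 1.87 at rechallenge (edgeR quasi-likelihood test, every adjusted p at or below 1.56e-06). The depletion values were -1.55 and -1.23 with depleted replicate 2 left out. FKBP5 and TMPRSS2 are from a list of 6 androgen-induced genes, all tested. By the thresholds given below, 2 of the 6 were called lower at depletion and 3 higher at rechallenge, beside 0.678% and 1.83% of all genes tested.

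Levels below are normalized counts, which are fragments scaled to a common library size, as mean ± SD of 3 libraries. Between genes, levels are compared only as FPKM, which divides fragments by exon length and library size. A gene was called when the adjusted p of edgeR's quasi-likelihood test was under 0.01, the log2 difference was over 1 in size and the group medians differed by more than 13 normalized counts. For the difference between the lines in their response to T, only the adjusted p and the log2 difference were used. UGT2A3 had 0 fragments in all 12 libraries, which allows a level of at most 0.0232 to 0.0343 FPKM depending on the library (3 fragments, counting error only). The other 7 genes passed the filter on low counts and were tested among 19162 genes.

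How far each gene can be counted depends on how much of its sequence is its own, because fragments that map to several genes were left out by the authors. UGT2B15 and UGT2B17 had 96.5% identical coding sequence, with 55 differences over 1590 bases, and their longest identical stretch ran from coding base 866 to 1064, 199 bases in all. Of the stretches of 75 bases (the read length) in the UGT2B15 transcript, 17.9% also occurred in UGT2B17, and of those in the UGT2B17 transcript 15.3% also occurred in UGT2B15. No other gene shared any with them. The stretch from coding base 361 to 435, shown because fragments there can be told apart, differs at 10 bases, given in capitals:
UGT2B15: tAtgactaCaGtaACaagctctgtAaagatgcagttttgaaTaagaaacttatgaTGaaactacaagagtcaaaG
UGT2B17: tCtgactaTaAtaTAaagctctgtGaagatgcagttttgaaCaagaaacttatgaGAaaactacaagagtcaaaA

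The share of 75-base stretches found in another gene was 0.0494% for UGT2B4, 0.448% for UGT2A3, 2.26% for UGT2B7, 11.9% for UGT2B10, 15.0% for UGT2B28 and 27.6% for UGT2B11. UGT2B11 and UGT2B28 were the most alike pair, with 97.0% identity and 47 differences over 1587 coding bases. UGT2B11 shared stretches with ENSG00000250696, UGT2B25P, UGT2B24P, UGT2B10, UGT2B28 and UGT2B27P, and 17.9% of its exon length also overlaps ENSG00000250696, where fragments were likewise left out. The counts of UGT2B11, UGT2B28, UGT2B15, UGT2B17 and UGT2B10 are therefore uncertain in their absolute level.

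**Figure D1:**
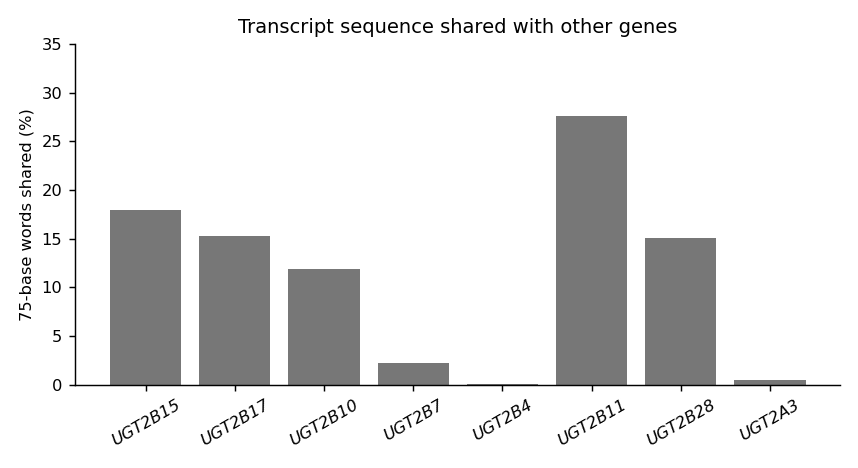
Bars show, for each of the 8 UGT2 genes (x axis), the percentage of 75-base stretches of its canonical transcript that also occur in a transcript of another gene (y axis). UGT2B11 is highest at 27.6%, and UGT2B4 and UGT2A3 are close to 0.

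RefSeq promoter sequences (250 bases before and 50 after the start site, GRCh38.p14) were at hand for 5 of the 8 genes, namely UGT2B7, UGT2B10, UGT2B11, UGT2B15 and UGT2A3. They were searched on both strands for the forkhead motif TGTTTAC, which 3.42% of 35116 promoters hold at least once. A match was found in the UGT2B15 promoter and in none of the other 4. It lay 183 to 177 bases before the start site, on the strand opposite to the gene. A match of letters is not a measured binding site. The promoters of UGT2B15 (chr4:68670603-68670902, minus strand, match in capitals), UGT2B10 (chr4:68815744-68816043, plus strand) and UGT2B11 (chr4:69214699-69214998, minus strand) are shown because the first holds the match and the other two are the most alike of the promoters at hand, 92.6% identical over 296 aligned bases:
UGT2B15: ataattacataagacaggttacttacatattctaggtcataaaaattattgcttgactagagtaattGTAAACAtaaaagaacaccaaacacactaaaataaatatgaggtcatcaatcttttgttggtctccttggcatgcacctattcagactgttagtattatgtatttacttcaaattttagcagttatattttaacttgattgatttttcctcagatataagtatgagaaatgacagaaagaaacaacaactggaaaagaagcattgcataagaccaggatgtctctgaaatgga
UGT2B10: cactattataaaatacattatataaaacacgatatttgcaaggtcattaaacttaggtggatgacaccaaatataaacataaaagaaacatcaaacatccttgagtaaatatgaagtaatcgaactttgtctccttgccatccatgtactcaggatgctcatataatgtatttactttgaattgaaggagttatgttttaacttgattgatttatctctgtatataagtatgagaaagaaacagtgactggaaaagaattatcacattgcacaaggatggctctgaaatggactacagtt
UGT2B11: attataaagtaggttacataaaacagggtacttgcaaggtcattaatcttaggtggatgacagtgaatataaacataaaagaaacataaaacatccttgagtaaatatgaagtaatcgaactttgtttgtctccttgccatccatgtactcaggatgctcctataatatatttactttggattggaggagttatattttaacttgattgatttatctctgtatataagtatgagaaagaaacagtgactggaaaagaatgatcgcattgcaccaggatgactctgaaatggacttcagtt
UGT2B15 was 77.7% identical to UGT2B10 and 78.4% to UGT2B11 over the aligned parts of these promoters.

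UGT2B4 was the most abundant of the 8 genes in every group. Its level was 19.4 ± 0.347 FPKM in maintained VCaP-T, 14.3 ± 0.784 after depletion, 7.86 ± 0.350 in maintained VCaP-CT and 25.9 ± 2.35 after rechallenge. It made up 91.8%, 77.9%, 84.1% and 88.3% of the summed FPKM of the 8 genes in these groups. UGT2B7 came next in 3 groups, with 0.889 ± 0.0663, 1.71 ± 0.618 and 0.660 ± 0.124 FPKM, and UGT2B11 (1.38 ± 0.163 FPKM) stood above UGT2B7 (1.08 ± 0.0386) in rechallenged VCaP-CT, where their libraries did not overlap. UGT2B10, UGT2B15, UGT2B17 and UGT2B28 stayed below 1 FPKM in every library. The order among UGT2B15, UGT2B17, UGT2B28, UGT2B11 and UGT2B10 differed between groups. UGT2B15 and UGT2B17 lay within their spread of each other in depleted VCaP-T, with 0.802 ± 0.0690 and 0.692 ± 0.180 FPKM, and so did UGT2B15 and UGT2B28 in maintained VCaP-CT, with 0.231 ± 0.0863 and 0.241 ± 0.0371.

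**Figure D2:**
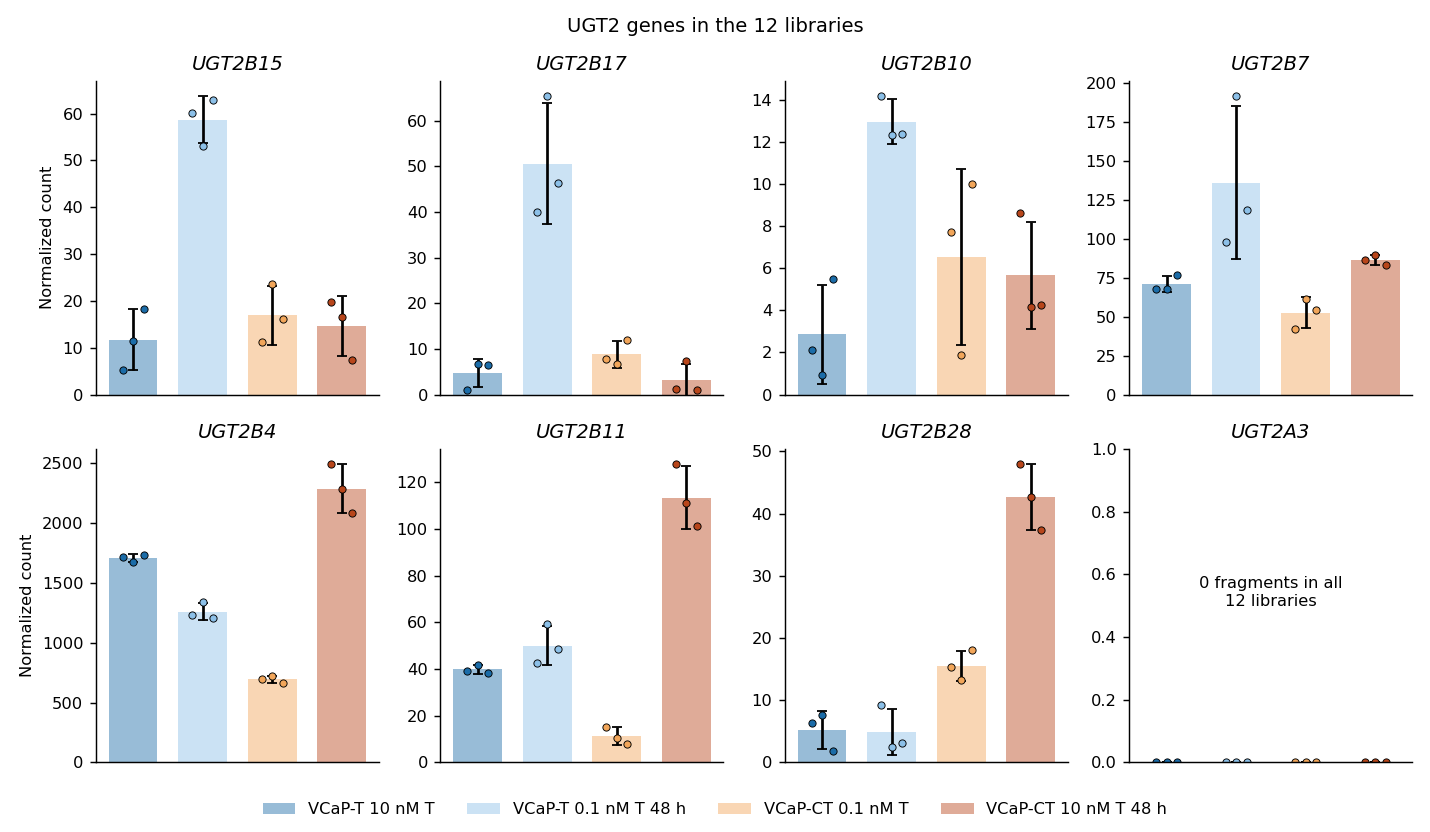
Normalized count (y axis, own linear scale for each gene) of the 8 UGT2 genes in the 4 groups, with bars for the mean of 3 libraries, error bars for the SD (cut at 0) and a point for each library. UGT2B15 and UGT2B17 are highest in depleted VCaP-T, with means of 58.7 and 50.6, whereas UGT2B4, UGT2B11 and UGT2B28 are highest in rechallenged VCaP-CT, with means of 2288, 113 and 42.6.

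The androgen-conjugating genes UGT2B15 and UGT2B17 were low in 3 groups and rose when VCaP-T cells were depleted of T. UGT2B15 had 5.31, 11.4 and 18.3 normalized counts in the VCaP-T libraries at 10 nM T and 60.1, 53.1 and 62.9 after 48 h at 0.1 nM T. In VCaP-CT it had 11.1, 23.7 and 16.0 at 0.1 nM T and 19.7, 16.6 and 7.47 after rechallenge. Every depleted VCaP-T library was thus above every library of the other 3 groups, which overlapped each other. The log2 difference at depletion was 2.29 ± 0.38 (SE, 4.91-fold), with an adjusted p of 0.00138 (edgeR), and without depleted replicate 2 it was 2.35 with an adjusted p of 2.70e-05.

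UGT2B17 had 1.06, 6.66 and 6.41 normalized counts in maintained VCaP-T and 40.1, 65.4 and 46.4 after depletion. It had 7.70, 6.63 and 12.0 in maintained VCaP-CT and 1.23, 7.27 and 1.07 at 10 nM T. The depleted group again stood above all other libraries. The log2 difference at depletion was 3.34 ± 0.48 (10.1-fold), with an adjusted p of 0.00055 (edgeR), and 3.12 without depleted replicate 2, with an adjusted p of 1.58e-05. The fold rests on a low base, since the libraries at 10 nM T held only 1 to 7 fragments of this gene.

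UGT2B15 and UGT2B17 were the 2 UGT2 genes called at depletion, both higher, where 3.14% of the 19162 genes tested were called, 2.46% higher and 0.678% lower. In a fit on the 6 VCaP-T libraries alone, neither was called, with adjusted p of 0.0179 for UGT2B15 and 0.0124 for UGT2B17 (edgeR) and log2 differences of 2.28 and 3.33, and 1.14% of the 19162 genes were called in that fit. Without VCaP-T 10 nM T replicate 2, UGT2B15 had an adjusted p of 0.0102 and 1 UGT2 gene was called.

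At rechallenge of VCaP-CT, the values of both genes overlapped between 0.1 nM and 10 nM T. The log2 difference was -0.22 ± 0.43 for UGT2B15, with an adjusted p of 0.762, and -1.37 ± 0.67 for UGT2B17, with an adjusted p of 0.171 (edgeR). Whether their response differed between the lines was tested directly. The difference of the responses to 10 nM T, VCaP-T minus VCaP-CT, was -2.08 ± 0.58 on the log2 scale for UGT2B15 (adjusted p of 0.0938, edgeR) and -1.97 ± 0.94 for UGT2B17 (adjusted p of 0.330). With depleted replicate 2 left out these were -2.13 and -1.76, with adjusted p of 0.0130 and 0.211. Neither difference passed the test in either fit. At the same 0.1 nM T, however, both genes were lower in VCaP-CT than in depleted VCaP-T, with log2 differences of -1.80 ± 0.36 and -2.51 ± 0.43 (3.48-fold and 5.68-fold, adjusted p of 0.00156 and 0.000567). Without depleted replicate 2 these were -1.86 and -2.29, both called. The UGT2B15 call was lost without VCaP-CT 0.1 nM T replicate 1, with an adjusted p of 0.0108.

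UGT2B10, the N-glucuronidating member, was counted at 1 to 17 fragments per library. Its normalized counts ranged from 0.951 to 5.49 in maintained VCaP-T and from 12.3 to 14.2 after depletion, and these groups did not overlap. The log2 difference was 2.12 ± 0.58 with an adjusted p of 0.0227 (edgeR), and no comparison called it. Without depleted replicate 2 it was 2.15 with an adjusted p of 0.00832, and it was not called, since the medians differed by too few counts. Its VCaP-CT libraries ranged from 1.89 to 10.0 at 0.1 nM T and from 4.16 to 8.61 at 10 nM T, so that no difference was detectable at this depth.

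UGT2B7, with broad steroid and drug substrates, differed between the lines at 0.1 nM T. It had 67.9, 67.5 and 76.9 normalized counts in maintained VCaP-T and 97.6, 191 and 119 after depletion. VCaP-CT libraries had 41.9, 61.5 and 54.1 at 0.1 nM T and 86.1, 89.4 and 83.2 at 10 nM T. The low and high T libraries did not overlap in either line, and the higher group was the one at 0.1 nM T in VCaP-T and the one at 10 nM T in VCaP-CT.

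Neither step was called for UGT2B7. The log2 difference was 0.92 ± 0.23 at depletion (adjusted p of 0.0140, edgeR, and 0.60 with 0.00544 without depleted replicate 2) and 0.72 ± 0.24 at rechallenge (adjusted p of 0.0481). The response to 10 nM T, taken as VCaP-T minus VCaP-CT, was -1.64 ± 0.33 with an adjusted p of 0.0223. The library with 191 counts is the replicate that stands apart, and without it the difference between the lines was -1.32 with an adjusted p of 0.000461, which was called. Between the lines at 0.1 nM T the log2 difference was -1.36 ± 0.23 (adjusted p of 0.000570), and it was -1.04 and still called without that library. In a fit on the 6 libraries at 0.1 nM T it was not called, with an adjusted p of 0.0153.

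UGT2B4, the bile acid enzyme, rose on T in VCaP-CT and was called in no comparison within VCaP-T. Its normalized counts were 1720, 1675 and 1734 in maintained VCaP-T and 1232, 1340 and 1211 after depletion. In VCaP-CT they were 700.0, 722 and 661 at 0.1 nM T and 2496, 2288 and 2081 at 10 nM T. No 2 of the 4 groups overlapped, and the order from low to high was VCaP-CT at 0.1 nM T, depleted VCaP-T, VCaP-T at 10 nM T and rechallenged VCaP-CT. The level in the 10 nM T libraries was above that at 0.1 nM T in both lines.

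The UGT2B4 log2 difference was 1.72 ± 0.08 at rechallenge (3.29-fold, adjusted p of 7.50e-08, edgeR). At depletion it was -0.44 ± 0.08 with an adjusted p of 0.00295, a change below the 2-fold threshold, and -0.49 without depleted replicate 2. The response to 10 nM T was smaller in VCaP-T than in VCaP-CT, by -1.28 ± 0.12 on the log2 scale (adjusted p of 0.000178), and by -1.23 without that replicate, also called. Between the lines, UGT2B4 was lower in VCaP-CT when each line was in its maintenance medium, by -1.30 ± 0.08 (adjusted p of 1.52e-07). At equal T it was not called, with log2 differences of -0.86 ± 0.08 at 0.1 nM (adjusted p of 6.57e-06) and 0.42 ± 0.08 at 10 nM (adjusted p of 0.00154), both below the 2-fold threshold. The value at 0.1 nM was -0.81 with depleted replicate 2 left out, still below it.

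UGT2B11, a close relative of UGT2B28 with no well established steroid substrate, had the largest log2 rise of the 7 tested members on T in VCaP-CT. VCaP-CT libraries had 15.4, 10.4 and 8.01 normalized counts at 0.1 nM T and 128, 111 and 101 at 10 nM T. VCaP-T libraries had 39.3, 41.8 and 38.4 at 10 nM T and 42.6, 59.3 and 48.5 after depletion. The VCaP-T libraries all lay between the VCaP-CT groups, with the depleted ones just above the maintained ones.

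At rechallenge the UGT2B11 log2 difference was 3.30 ± 0.22 (9.82-fold, adjusted p of 1.07e-06, edgeR). At depletion it was 0.32 ± 0.20, with an adjusted p of 0.283, and 0.18 without depleted replicate 2, with an adjusted p of 0.525. The difference of responses, VCaP-T minus VCaP-CT, was -3.61 ± 0.31 with an adjusted p of 8.95e-05, and -3.47 without depleted replicate 2. UGT2B11 was lower in VCaP-CT than in VCaP-T in maintenance medium (-1.79 ± 0.24, adjusted p of 8.62e-05) and at 0.1 nM T (-2.11 ± 0.24, adjusted p of 2.23e-05, and -1.97 without depleted replicate 2), and higher at 10 nM T (1.505 ± 0.19, adjusted p of 6.69e-05). It was the only UGT2 gene called in both of these equal-T comparisons, in opposite directions.

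UGT2B28 was low in VCaP-T and higher in VCaP-CT. VCaP-T libraries had 6.37, 7.61 and 1.83 normalized counts at 10 nM T and 9.18, 2.47 and 3.09 after depletion. VCaP-CT libraries had 15.4, 13.3 and 18.0 at 0.1 nM T and 48.0, 42.6 and 37.3 at 10 nM T. All VCaP-CT libraries were above all VCaP-T libraries, and in VCaP-CT the groups at 0.1 and 10 nM T did not overlap.

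At 10 nM T the UGT2B28 log2 difference between the lines was 3.00 ± 0.41 (8.01-fold, adjusted p of 0.000115, edgeR). At 0.1 nM T it was 1.53 ± 0.46, with an adjusted p of 0.0176, and 1.26 without depleted replicate 2, with an adjusted p of 0.0243, and was called in neither fit. Its difference at depletion was 0.02 ± 0.55, and 0.30 without that replicate, and its difference of responses was -1.47 ± 0.67 and -1.75, none of them called. The rise at rechallenge was 1.45 ± 0.34 (adjusted p of 0.00836), and leaving out any 1 of the 6 VCaP-CT libraries ended this call, with adjusted p of 0.0198 to 0.0425. In a fit on the 6 VCaP-CT libraries alone it was called, with a log2 difference of 1.44 and an adjusted p of 0.000108 (edgeR). Although UGT2B11 and UGT2B28 share sequence, their order was reversed between the lines at 0.1 nM T, with UGT2B11 at 0.608 and UGT2B28 at 0.0761 FPKM in depleted VCaP-T but 0.137 and 0.241 FPKM in VCaP-CT.

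Counted over the members, rechallenge called 3 of the 7 tested genes, all higher (UGT2B4, UGT2B11, UGT2B28), where 5.14% of all genes were called, 1.83% higher and 3.3% lower. The difference of responses between the lines called UGT2B4 and UGT2B11, both lower in VCaP-T, where 0.564% of all genes were called and 0.449% were called lower. The lines in maintenance medium differed in 2 genes, UGT2B4 and UGT2B11, both lower in VCaP-CT, against 12.7% of all genes called, 5.61% higher and 7.06% lower. At 0.1 nM T, UGT2B7, UGT2B11, UGT2B15 and UGT2B17 were lower in VCaP-CT, against 12.3% called, 3.62% higher and 8.68% lower. At 10 nM T, UGT2B11 and UGT2B28 were higher in VCaP-CT, against 10.2% called, 3.17% higher and 7.08% lower. The median log2 difference of the 7 genes was 0.92 at depletion, 0.72 at rechallenge, 0.50 in maintenance medium, -1.36 at 0.1 nM T and 0.42 at 10 nM T, beside medians over all tested genes of 0.04, -0.02, 0.00, -0.02 and 0.00. Without depleted replicate 2, 2 members were called at depletion, 4 at 0.1 nM T and 3 for the difference of responses, and the medians were 0.60 at depletion and -1.04 at 0.1 nM T. These comparisons share groups, so their values are not independent of each other.

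**Figure D3:**
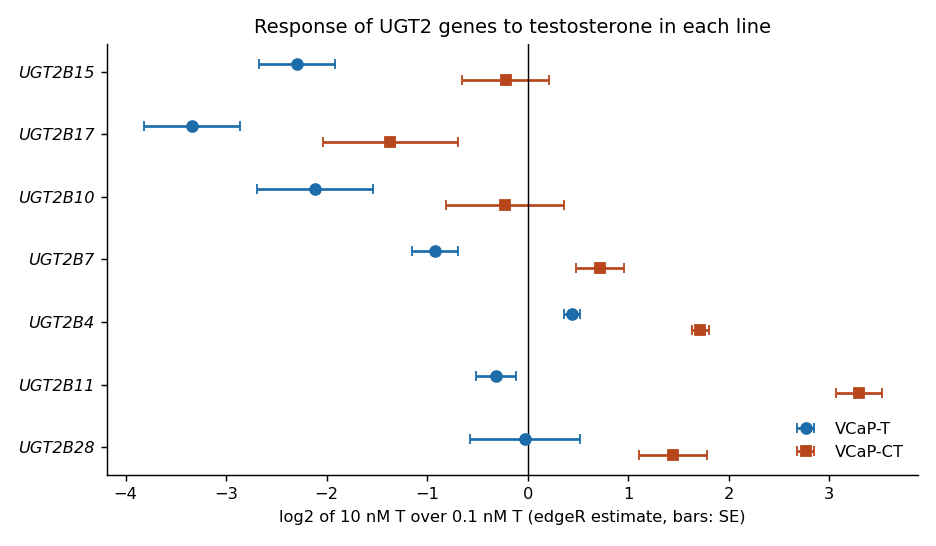
The x axis gives the log2 ratio of 10 nM T over 0.1 nM T in VCaP-T (circles) and VCaP-CT (squares) for the 7 tested UGT2 genes, with bars for the SE. UGT2B11 is at -0.32 in VCaP-T and 3.30 in VCaP-CT, and UGT2B17 is at -3.34 in VCaP-T and -1.37 in VCaP-CT.

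**Figure D4:**
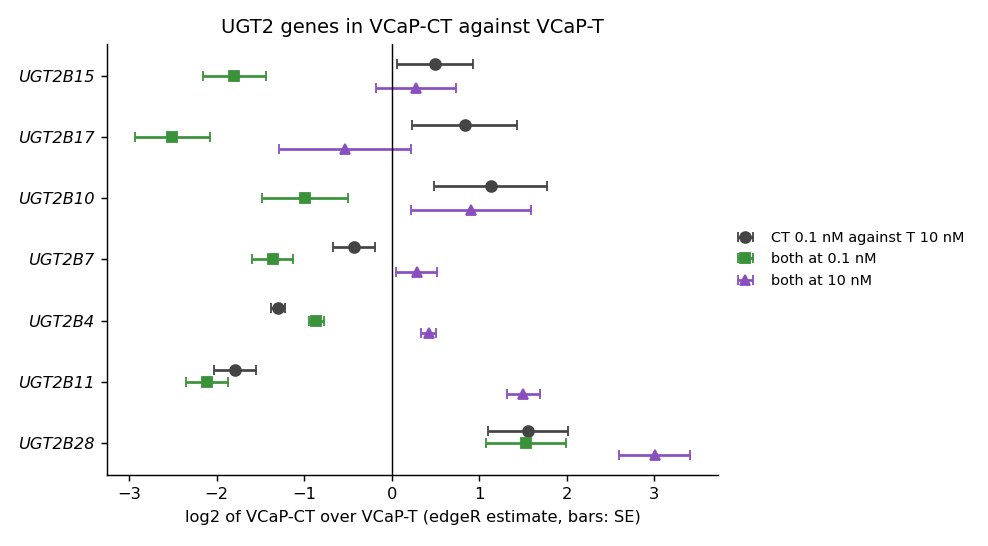
The x axis gives the log2 ratio of VCaP-CT over VCaP-T for the 7 tested UGT2 genes with each line in its maintenance medium (circles), both at 0.1 nM T (squares) and both at 10 nM T (triangles), with bars for the SE. UGT2B11 goes from -2.11 at 0.1 nM T to 1.505 at 10 nM T, and UGT2B28 lies above 0 in all 3.

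The makeup of the UGT2 transcripts shifted with T in VCaP-T. The summed FPKM of the members other than UGT2B4 was 1.72 ± 0.166 at 10 nM T and 4.08 ± 0.787 after depletion, while that of all 8 was 21.1 ± 0.408 and 18.4 ± 1.54. UGT2B15 and UGT2B17 made up 0.753% ± 0.409 and 0.305% ± 0.205 of the sum at 10 nM T, and 4.41% ± 0.704 and 3.74% ± 0.656 after depletion. Without depleted replicate 2 the depleted sums were 3.63 and 17.5 and these shares 4.81% and 3.38%. In VCaP-CT the sum of all 8 was 9.35 ± 0.337 at 0.1 nM T and 29.4 ± 2.72 at 10 nM T. Without UGT2B4 the VCaP-CT sum was 1.48 ± 0.142 and 3.45 ± 0.384, so it was higher at 10 nM T, the reverse of VCaP-T. The shares of UGT2B15 and UGT2B17 in VCaP-CT were 2.46% and 1.29% at 0.1 nM T and 0.665% and 0.148% at 10 nM T. Their own levels overlapped between these groups, while that of UGT2B4 rose. These shares are descriptions and were not tested.

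Across the 12 libraries, log2 levels of UGT2B4 and UGT2B11 went together (Pearson r of 0.931), as did those of UGT2B15 and UGT2B17 (0.878). The libraries share their groups, and the second pair shares sequence. Genes most like each member over these libraries, by the same measure, were DEFB132 (0.988) and IL20RA (0.984) for UGT2B4, and SOX9 (0.974), ZDHHC16 (0.973) and CCDC159 (0.960) for UGT2B11. For UGT2B15 they were FAM210B (0.951), FAM107B (0.948) and SNX6 (0.926), and for UGT2B17 SMIM14 (0.950), LRATD2 (0.950) and ZNF710-AS1 (0.946). For UGT2B28 they were ENPP3 (0.957), MEX3C (0.955) and MERTK (0.952), for UGT2B7 LITAF (0.948) and CDC42 (0.944), and for UGT2B10 MT-TK (0.911), ANO2 (0.888) and GRAMD2A (0.834).

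Around the UGT2 genes, within 500 kb of the outermost members, 64 other genes were in the files. Of these, 33 had no fragment in any library and 4 were tested. The pseudogene UGT2B24P, which shares 75-base stretches with UGT2B28 (9.93% of those of UGT2B28) and UGT2B11 (4.83%), had 12.2 ± 2.55 normalized counts in maintained VCaP-T, 2.28 ± 0.950 after depletion, 4.28 ± 1.59 in maintained VCaP-CT and 42.8 ± 11.8 after rechallenge. Its log2 difference was 3.26 ± 0.34 at rechallenge, with an adjusted p of 3.25e-05 (edgeR), and fragments of it cannot be fully told apart from those of UGT2B11 and UGT2B28. TMPRSS11F, a membrane serine protease gene, moved the other way at rechallenge, by -1.98 ± 0.29 (adjusted p of 0.000361), and so did POLR2MP1, by -1.85 ± 0.24 (adjusted p of 0.000164). UBA6-DT overlaps both of these genes, and the counting did not use strand. It was higher in VCaP-CT at 10 nM T by 1.04 ± 0.08 (adjusted p of 1.62e-06).

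Other genes of androgen disposal were taken from lists named by function. Among 14 other UDP-glycosyltransferases, 12 were found in the files and 3 were tested. UGT1A1, the bilirubin enzyme, was counted at 44.7 ± 7.09 and 43.1 ± 16.96 in maintained VCaP-T and after depletion, but at 0.983 ± 1.00 in maintained VCaP-CT and at 0 in all 3 rechallenged libraries. UGT1A genes share exons, so only fragments outside these were counted. UGT3A2 was higher in VCaP-CT in maintenance medium (1.62 ± 0.19) and at 10 nM T (1.51 ± 0.19), and UGT8, which makes galactosylceramide, was higher in maintenance medium (1.11 ± 0.09), with adjusted p (edgeR) of 2.45e-05, 6.67e-05 and 9.56e-07.

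All 8 genes that supply UDP-glucuronate were tested. At depletion 1 was lower (HK2, a hexokinase, -1.02 ± 0.11), beside 0.678% of all genes tested, and at rechallenge 1 was higher (HK1, 1.03 ± 0.09), beside 1.83% of all genes. The HK2 call was lost without depleted replicate 2, where the log2 difference was -0.89. UGDH, the dehydrogenase that makes UDP-glucuronate, had 4995 ± 143 normalized counts in maintained VCaP-T, 4669 ± 145 after depletion, 2230 ± 73.6 in maintained VCaP-CT and 4434 ± 266 after rechallenge. It was lower in VCaP-CT in maintenance medium (-1.16 ± 0.07, adjusted p of 9.39e-08, edgeR) and at 0.1 nM T (-1.07 ± 0.07, adjusted p of 2.27e-07). HK2 was lower in VCaP-CT in maintenance medium and at 10 nM T. UGP2, which makes UDP-glucose, was lower at 0.1 nM T (-1.37 ± 0.13), and SLC35D2, a nucleotide sugar transporter, at 10 nM T (-1.01 ± 0.17).

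Of 6 genes for cleavage and efflux of glucuronides, 2 were higher at rechallenge, where 1.83% of all genes were, the transporters ABCC4 (1.12 ± 0.12) and ABCG2 (3.02 ± 0.40), with adjusted p of 3.78e-05 and 0.00018 (edgeR). ABCC3, a transporter of glucuronides, was lower in VCaP-CT in all 3 comparisons of the lines, with 251 ± 31.6 and 489 ± 122 normalized counts in maintained VCaP-T and after depletion and 36.7 ± 2.43 and 33.1 ± 4.62 in VCaP-CT at 0.1 and 10 nM T. Without depleted replicate 2, ABCC3 was also called at depletion, with a log2 difference of 1.16 (0.97 with it). ABCC4 was also lower in VCaP-CT in maintenance medium (-1.75 ± 0.12), and ABCG2 was higher in it at 10 nM T (1.66 ± 0.35).

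Sulfation is the other conjugation route for steroids. Of 8 genes listed for it, 5 were tested, and edgeR and DESeq2 called none at depletion or rechallenge. With edgeR, 3.14% and 5.14% of all genes tested were called there, so a list of 5 could well hold none. In either tool 4 and 3 of the 5 had an unadjusted p under 0.05, and the share of all genes under it was not counted. The sulfotransferase SULT2B1 was lower in VCaP-CT in all 3 comparisons of the lines, with 30.1 ± 8.74 and 67.2 ± 24.2 normalized counts in maintained VCaP-T and after depletion against 4.34 ± 0.367 and 1.42 ± 2.46 in VCaP-CT at 0.1 and 10 nM T. PAPSS1, which makes the sulfate donor, was lower in VCaP-CT than in depleted VCaP-T at 0.1 nM T (-1.07 ± 0.07), and its relative PAPSS2 was higher at 10 nM T (1.29 ± 0.10). At depletion PAPSS1 had a log2 difference of 0.97 ± 0.07 (adjusted p of 2.72e-06, edgeR), just below the 2-fold threshold, and 0.98 without depleted replicate 2.

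Reduction and oxidation come before conjugation. Of 20 such genes, 14 were tested, and 4 were higher at depletion, where 2.46% of all genes were, namely AKR1C3 (2.16 ± 0.22), which makes T from androstenedione, HSD17B6 (1.02 ± 0.16), DHRS9 (1.03 ± 0.15) and HSD17B14 (1.13 ± 0.15), with adjusted p (edgeR) of 4.23e-05, 0.000929, 0.000633 and 0.000295. HSD17B14 and HSD3B1 were named after their values were seen. With depleted replicate 2 left out, the 4 values were 1.81, 0.76, 1.06 and 1.003, and HSD17B6 was no longer called. At rechallenge HSD3B1 was higher (1.602 ± 0.17), and AKR1C3 (-1.4998 ± 0.30) and HSD17B14 (-1.29 ± 0.17) were lower. AKR1C genes are close paralogs, so their counts are uncertain in the same way. In the 3 comparisons of the lines 6, 7 and 6 of the 14 were lower in VCaP-CT in maintenance medium, at 0.1 nM T and at 10 nM T, and 1, 0 and 0 were higher, beside 7.06%, 8.68% and 7.08% of all genes lower and 5.61%, 3.62% and 3.17% higher. DHRS9 and AKR1C2, both of which act on 3-alpha-hydroxysteroids, were lower in all 3, as were RDH16 and AKR1C3, and the 5-alpha-reductase SRD5A1 was lower in maintenance medium and at 0.1 nM T.

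Among 16 regulators known for UGT2B genes, 14 were tested. NR1H4, the bile acid receptor, was higher at depletion (1.73 ± 0.27, adjusted p of 0.00087), and lower in VCaP-CT in all 3 comparisons of the lines. ERG was lower at depletion (-1.12 ± 0.09) and higher at rechallenge (1.12 ± 0.09), and NR1I3, a receptor for drugs, was lower in VCaP-CT in maintenance medium (-1.79 ± 0.33). The depletion values were 1.53 for NR1H4 and -1.03 for ERG with depleted replicate 2 left out, both called. Whether any of these genes bears on the UGT2 genes was not tested.

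**Figure D5:**
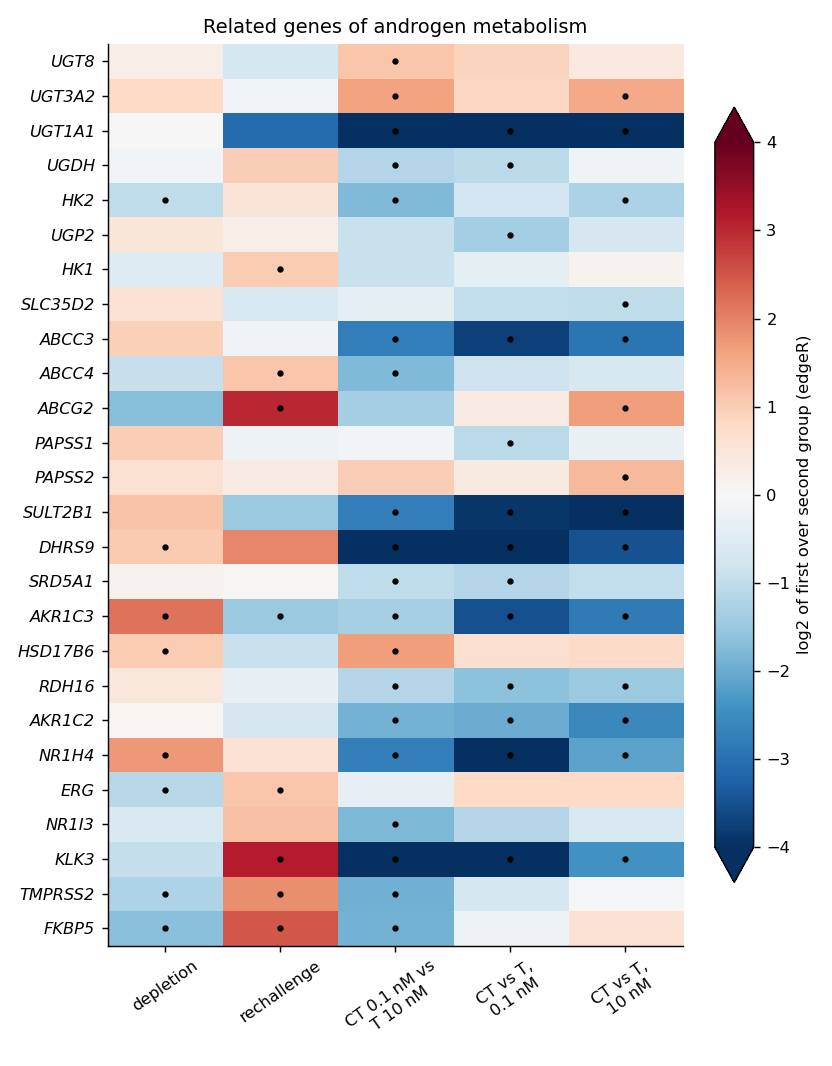
Colours give the log2 difference (edgeR estimate, colour scale limited to 4 in size) of the genes named from the related lists (rows) in 5 comparisons (columns), with a dot where a gene was called. ABCC3, SULT2B1, DHRS9 and AKR1C2 are blue with a dot in all 3 comparisons of the lines, that is, lower in VCaP-CT; estimates for UGT1A1 rest on groups at or near 0.

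UGT2 genes are best known from liver and gut, so markers of those tissues were read beside them. The summed level of 10 hepatocyte markers was 11.6 to 12.4 CPM in maintained VCaP-T, 42.9 to 58.7 after depletion, 65.7 to 69.4 in maintained VCaP-CT and 18.0 to 19.1 after rechallenge. APOA2 and FGB were at 0 in nearly all libraries, and ALB and TTR together accounted for most of the sum. In VCaP-CT, SERPINA1 went against the sum, with means of 0.476 CPM at 0.1 nM T and 0.931 at 10 nM T. The summed level of 9 enterocyte markers was 63.7 to 66.1, 105 to 160, 161 to 167 and 51.3 to 61.6. FABP1, APOA4 and ALPI were at 0 in every library, and SI accounted for most of the sum. In maintenance medium SI and CDX2 were higher in VCaP-CT, whereas CDH17 went against the sum and was lower. CDH17 had means of 13.5, 33.7, 1.51 and 0.339 CPM in the 4 groups. The 3 basal prostate markers summed to 4.67 to 5.75, 1.54 to 3.43, 1.37 to 1.94 and 3.07 to 3.51, nearly all of it KRT14. The basal sum was thus lower at 0.1 nM T in both lines. The 6 fibroblast markers summed to 5.66 to 7.38, 18.4 to 21.1, 24.9 to 28.1 and 2.15 to 2.83. LUM and COL1A1 made up nearly all of the fibroblast sum, and the other markers in it were at or near 0. In these groups LUM had means of 0.582, 8.51, 25.1 and 1.87 CPM and COL1A1 of 5.79, 10.8, 1.39 and 0.506. In maintenance medium LUM was thus higher and COL1A1 lower in VCaP-CT. The hepatocyte, enterocyte and fibroblast sums were thus higher at 0.1 nM T in both lines, whereas the UGT2B15 and UGT2B17 levels in maintained VCaP-CT overlapped those of VCaP-T at 10 nM T. The samples are cultured sublines of VCaP, so these markers are read as genes and not as numbers of liver, gut or stromal cells. The part of these genes in the UGT2 values was not tested. In bulk RNA, the number of cells that express a gene and its RNA per cell cannot be told apart.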

How the data were processed

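Libraries (TruSeq stranded mRNA, paired 75 base reads) were aligned by the authors with STAR 2.5.4b to GRCh38 and counted with featureCounts 1.6.2 on Gencode 28 exons, without strand, leaving out fragments that mapped to several places or genes. The deposited values used are these raw counts of fragments per gene. The table normalized by the authors was not used here. Symbols came from Ensembl identifiers (57754 of 58381 matched). Counts were fitted in R 4.3.3 with edgeR 4.0.16 (TMM, filterByExpr, quasi-likelihood, 1 model of 4 groups), with Benjamini-Hochberg adjustment over 19162 genes. The SE is the log2 difference divided by the square root of F. Fitting was tested on simulated data. Shared stretches and coding identity used Gencode canonical transcripts, and promoters are from RefSeq. Named genes were all members, at most 6 called genes per related list, the 3 genes most correlated with each member and called neighbours. Members, lists and this rule were chosen with earlier results of these data known. Alternatives were DESeq2 1.42.0, its size factors, no filter, a replicate block, each comparison's own 6 libraries and leaving out each library. Results for some genes that these rules would name are not reported here.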

Additional observations from a re-analysis of the deposited data

Results flagged for a closer look

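The responses of 2 genes to 10 nM T differed between VCaP-T and VCaP-CT by the interaction test of edgeR, taken as VCaP-T minus VCaP-CT. For UGT2B11 the difference was -3.61 ± 0.31 (SE) on the log2 scale, with an adjusted p of 8.95e-05. It ranged from -3.92 to -3.43 when each library was left out in turn. For UGT2B4 the difference was -1.28 ± 0.12, with an adjusted p of 0.000178 and a range of -1.34 to -1.21. In both genes all 3 rechallenged VCaP-CT libraries were above all 3 VCaP-CT libraries at 0.1 nM T.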

How the results depend on the processing

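At depletion, 0 UGT2 genes were called in the fit on its own 6 libraries by edgeR (2 in the fit on all 12, and 2 by DESeq2). Of the 6 members that passed the filter of that 6-library fit, 5 had an unadjusted p under 0.05. The share of all genes under it was not counted, so this number is a description only. Leaving out each library in turn, 1 to 3 were called at depletion, 3 to 4 between the lines at 0.1 nM T, 2 to 3 for the difference of responses, and 2 in the other comparisons, rechallenge included (3 with all libraries). The share of all tested genes called for the difference of responses was 0.564%, and 1.1% with DESeq2, 0.898% with no filter and 0.334% with the replicate block. Depletion called 1.14% on its own 6 libraries. UGT2B7 gained a call for the difference of responses with DESeq2 (-1.64), with no filter (-1.63), and without depleted replicate 1 (-1.84) or 2 (-1.32), and at depletion without depleted replicate 1 (1.13, adjusted p of 0.004, edgeR).

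Same-numbered libraries did not deviate together (correlations of deviations from -0.155 to 0.055), so no effect shared by replicate number was seen. This does not exclude that they were handled together, which the labels do not say. With the replicate block, 2 members were called at depletion, 2 at rechallenge and 2, 4, 2 and 2 in the others, and UGT2B28 at rechallenge had a log2 difference of 1.45 with an adjusted p of 0.0152 (edgeR).

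Values near 0 changed sign. UGT2B28 at depletion was -0.0073 with DESeq2 and -0.018 with the replicate block, and from -0.85 (without depleted replicate 1) to 0.41 when each library was left out, with -0.40 without VCaP-T 10 nM T replicate 3. UGT2B10 at rechallenge ran from -0.65 to 0.17, the last without VCaP-CT 0.1 nM T replicate 3. UGT2B15 at rechallenge ran from -0.47 to 0.10, above 0 without VCaP-CT 0.1 nM T replicate 2 or rechallenged replicate 3, and at 10 nM T from -0.044 (without VCaP-T 10 nM T replicate 1) to 0.76. The cause of these changes was not tested. Of 490 values for single genes under alternatives, 465 kept their direction and side of the threshold. The depth limits UGT2B10, UGT2B17 and UGT2B28 most, with as few as 1 or 2 fragments in a library, and the filter on low counts in the 6-library fits removed some of them.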
